A study of Homo sapiens with 4 samples.

Results

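The genes described here encode the main chaperones and ATP-dependent proteases of human mitochondria: HSPD1, HSPE1, HSPA9, TRAP1, LONP1, CLPP, CLPX, YME1L1, AFG3L2 and SPG7. They were listed by name for their function, with earlier results of these data known, and all 10 were found by symbol among the 20263 genes counted and passed the filter on low counts. RNA was sequenced from HCT116, an established human colorectal carcinoma cell line labelled wild type. Cells received 30 µM HJ-23, which the submitters call a piperine derivative, or the solvent control of 0.1% DMSO, and were collected after 24 hours; each group had 2 libraries. The treatment field of the treated libraries reads HJ-25, while their titles read HJ-23, and the name in the titles is used. Nothing in the labels says that the libraries of a group were separate cultures, so every p-value measures the spread between these libraries only, which may be technical.

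Most mitochondrial proteins are made in the cytosol, threaded through the outer and inner membranes unfolded, and must fold again inside. The HSP70 of the matrix, HSPA9, pulls them in, and the HSPD1 barrel with its HSPE1 lid folds many of them; TRAP1 is the HSP90 of the organelle. Damaged matrix proteins are degraded by LONP1 and by the CLPXP protease, in which the CLPX ring unfolds substrates and feeds them to CLPP, while inner membrane proteins are handled by YME1L1, whose active site faces the intermembrane space, and by the m-AAA protease of AFG3L2 and SPG7, whose active site faces the matrix. When misfolded proteins build up in mitochondria, cells can raise the transcription of several of these genes, a program called the mitochondrial unfolded protein response, in which the transcription factors ATF4, ATF5, DDIT3 (CHOP) and HSF1 have been described as regulators.

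HSPD1 and HSPE1 stand head to head, and their promoters, with those of LONP1 and HSPA9, are shown because they hold letters read by HSF1 or by MYC and its relatives. The sequences are RefSeq's for GRCh38.p14, 5′ to 3′ on the strand of each gene, from 250 bases before the start site to 50 bases from it on, and capitals mark the motifs searched. HSPE1 is at chr2:197500129-197500428 on the plus strand, HSPD1 (the more downstream of 2 start sites) at chr2:197499791-197500090, LONP1 at chr19:5720097-5720396 and HSPA9 at chr5:138575352-138575651, these on the minus strand.
HSPE1: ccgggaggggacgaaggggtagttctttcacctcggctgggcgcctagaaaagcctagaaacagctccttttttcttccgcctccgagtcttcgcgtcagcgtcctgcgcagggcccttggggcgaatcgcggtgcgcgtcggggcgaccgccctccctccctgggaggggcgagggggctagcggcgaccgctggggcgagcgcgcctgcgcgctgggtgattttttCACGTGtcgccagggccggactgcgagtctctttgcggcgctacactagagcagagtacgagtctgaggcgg
HSPD1: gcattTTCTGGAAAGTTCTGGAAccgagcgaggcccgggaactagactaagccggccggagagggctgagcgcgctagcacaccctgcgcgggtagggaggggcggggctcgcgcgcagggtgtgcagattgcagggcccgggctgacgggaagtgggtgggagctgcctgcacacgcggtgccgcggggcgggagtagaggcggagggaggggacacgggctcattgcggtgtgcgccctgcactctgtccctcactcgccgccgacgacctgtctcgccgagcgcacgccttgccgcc
LONP1: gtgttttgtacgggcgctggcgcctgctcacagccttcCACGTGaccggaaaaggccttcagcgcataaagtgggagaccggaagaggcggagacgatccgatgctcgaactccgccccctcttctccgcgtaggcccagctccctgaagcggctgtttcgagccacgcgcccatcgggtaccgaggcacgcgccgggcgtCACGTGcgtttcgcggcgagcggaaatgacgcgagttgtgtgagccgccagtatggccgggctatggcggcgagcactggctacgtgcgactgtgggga
HSPA9: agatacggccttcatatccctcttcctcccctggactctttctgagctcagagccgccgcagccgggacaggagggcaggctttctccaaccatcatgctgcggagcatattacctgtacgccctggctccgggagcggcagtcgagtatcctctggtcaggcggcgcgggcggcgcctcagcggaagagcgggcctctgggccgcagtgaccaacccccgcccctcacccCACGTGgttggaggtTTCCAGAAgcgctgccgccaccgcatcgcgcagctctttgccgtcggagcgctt

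The other start site of HSPD1 lies 105 bases before that of HSPE1 on the opposite strand, and the windows around those sites share 204 bases. Both therefore hold the same E-box (CACGTG, a palindrome read by MYC and related factors), at base -22 for HSPE1 and -88 for HSPD1. LONP1 has the E-box at -212 and -49 in the window shown, and HSPA9 at -19. The window of the other LONP1 start site, chr19:5720403-5720702, held none of the motifs searched. Promoter windows were given for 8 of the genes, some with 2 start sites, 11 windows in all, and the E-box was found in 4 of the 11 (counting the shared site under both genes), against 7.26% of the 35116 windows of this length in the table. The downstream HSPD1 window has, near its upstream end, a run of alternating heat shock elements, the letters read by HSF1, in which the tail-to-tail pair TTCNNGAA occurs at -245 and -235 and overlaps the head-to-head pair GAANNTTC at -240. HSPA9 has the tail-to-tail pair at -4; 7.74% of all windows hold the tail-to-tail pair and 6.77% the head-to-head pair. The cyclic AMP response element TGACGTCA was found in TRAP1 alone, at -94 (1.85% of windows), and the C/EBP-ATF response element TGATGNAA in 0 of the 11 windows searched (3.62% of windows). All motifs were searched on both strands. A match describes letters only and says nothing about whether a factor was bound. CLPP and YME1L1 had no window.

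Total counts per library ran from 29769568 to 34831207, and each of the 10 genes had at least 1255 counts in every library. Levels are in CPM, a gene's counts divided by the TMM-scaled library size and scaled up to CPM units, and group values are means ± SD with n = 2. Of the 7 epithelial markers checked, 5 (EPCAM, CDH1, KRT8, KRT18 and KRT19) had at least 10 CPM in every library, CDX1 had 0 counts, and VIL1 had at most 4. Their summed level ran from 4080 to 4508 CPM in DMSO and from 4033 to 5498 CPM in HJ-23. Of the leukocyte and fibroblast markers, PTPRC, CD3E, COL1A2 and DCN had 0 counts in every library, whereas CD68 ran from 34.8 to 51.0 CPM and COL1A1 from 55.1 to 63.3 CPM. The 3 endothelial markers summed to between 0.752 and 1.31 CPM.

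None of the 10 genes passed the test for a difference between HJ-23 and DMSO. Their log2 fold changes, HJ-23 over DMSO, ran from -0.12 for HSPD1 to 0.30 for LONP1, with adjusted p-values from 0.508 to 0.996 (edgeR's quasi-likelihood test, Benjamini-Hochberg adjustment over the 14062 genes tested, threshold 0.05). Over all genes tested 0.0853% passed (0.0569% higher and 0.0284% lower in HJ-23), so 0 of 10 is near the background. At an unadjusted p below 0.05 the count was also 0 of 10, where 12.0% of all genes tested passed (6.77% higher and 5.25% lower), and DESeq2 called 0 of 10, against 2.31% of the genes for which it gave an adjusted p. The median log2 fold change of the 10 genes was 0.080, beside 0.009 for all genes tested, and the median size of the change regardless of sign was 0.099, beside 0.22. In level the 10 genes ranked from the 65.4th (CLPP) to the 98.8th percentile (HSPD1) of all genes tested. The comparison is therefore not with genes of like level.

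A p-value above the threshold does not show that levels were alike, and the intervals give the size of change the libraries allow. For each of the 10 genes the 95% interval of the log2 fold change, taken gene by gene from the edgeR fit, lay within 1 either way, that is, within a 2-fold change. Of all genes tested, which include many of lower level, 72.6% had such an interval. The lowest bound was -0.59, for HSPD1, and the highest 0.71, for LONP1, a fold of 0.663 and 1.64. Changes of a size within a gene's interval are compatible with its 4 libraries. In such bulk RNA, less RNA per cell and fewer cells with the RNA cannot be told apart.

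**Figure D1:**
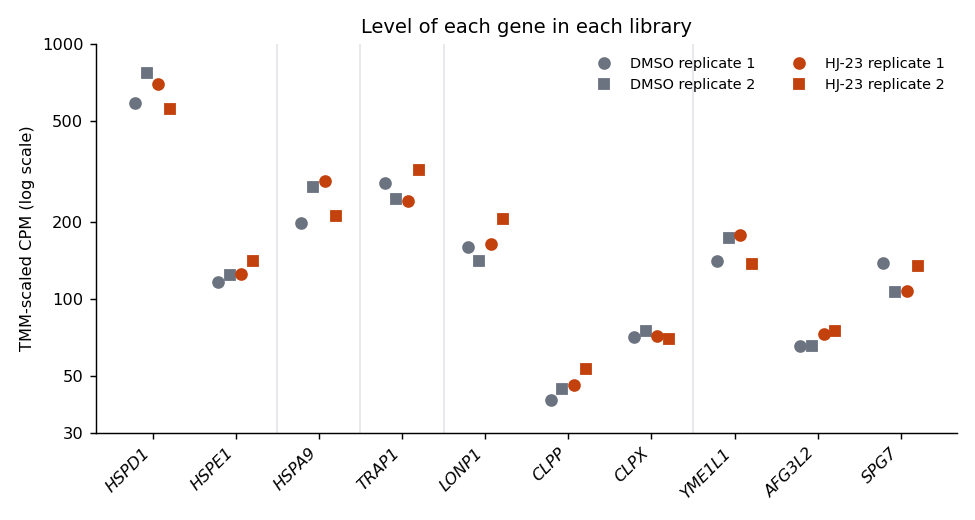
TMM-scaled CPM (log axis) of each gene in each of the 4 libraries, grey for DMSO and orange for HJ-23, circles for replicate 1 and squares for replicate 2, with thin lines between functional classes. HSPD1, HSPA9, YME1L1, TRAP1 and SPG7 differ more between the libraries of each group than between the groups. HSPE1 and LONP1 do so in HJ-23 only and CLPX in DMSO only, and AFG3L2 shows the tightest pairs.

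HSPD1 (ENSG00000144381), the HSP60 chaperonin that forms the folding chamber, had the highest level of the 10. It was at 586.7 and 772.2 CPM in DMSO replicates 1 and 2 and at 696.1 and 557.1 CPM in HJ-23 replicates 1 and 2. The groups overlapped in part: HJ-23 replicate 2 was the lowest library and DMSO replicate 2 the highest. The means were 679.5 ± 131.2 and 626.6 ± 98.3 CPM, with a log2 fold change of -0.12 (SE 0.19, 95% interval -0.59 to 0.36, adjusted p = 0.831, edgeR).

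HSPE1 (ENSG00000115541), the HSP10 lid of that chamber, was at 117.0 and 124.1 CPM in DMSO and at 125.7 and 141.7 CPM in HJ-23. Both treated libraries lay above both controls, the nearest pair by less than 2 CPM. The log2 fold change was 0.15 (SE 0.14, 95% interval -0.19 to 0.49, adjusted p = 0.682, edgeR), and 0.037 without HJ-23 replicate 2. RefSeq names 22 pseudogenes for HSPD1 and 28 for HSPE1, and none of these is among the genes counted, so reads that fit both a gene and its copies could have been assigned in ways that cannot be traced here, and both levels are uncertain to that extent. Fewer are named for HSPA9 (2), YME1L1 (1) and AFG3L2 (1), also not counted, and the same limit holds for those genes.

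HSPA9 (ENSG00000113013), mortalin, the HSP70 of the matrix and of the import motor, was at 199.0 and 275.3 CPM in DMSO and at 289.8 and 211.9 CPM in HJ-23. As for HSPD1, DMSO replicate 2 and HJ-23 replicate 1 were the high libraries. Its log2 fold change of 0.081 had the widest interval of the 10 genes, -0.47 to 0.63 (SE 0.23, adjusted p = 0.903, edgeR). TRAP1 (ENSG00000126602), the HSP90 paralog of mitochondria, was at 285.5 and 246.8 CPM in DMSO and at 242.4 and 319.7 CPM in HJ-23. Here the pattern was the opposite, with DMSO replicate 1 and HJ-23 replicate 2 high, and the log2 fold change was 0.079 (95% interval -0.365 to 0.52, adjusted p = 0.881, edgeR).

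LONP1 (ENSG00000196365), the Lon protease, which degrades oxidized matrix proteins, was at 160.3 and 140.7 CPM in DMSO and at 163.8 and 206.1 CPM in HJ-23. Both treated libraries lay above both controls, but HJ-23 replicate 1 exceeded DMSO replicate 1 by only a few CPM. The means were 150.5 ± 13.9 and 184.9 ± 29.9 CPM. It had the largest difference of the 10 genes, a log2 fold change of 0.297 (SE 0.169, 95% interval -0.115 to 0.71, unadjusted p = 0.128, adjusted p = 0.508, edgeR). Without HJ-23 replicate 2 that log2 fold change was 0.098, and with offsets for the GC content and length of transcripts it was 0.075.

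CLPP (ENSG00000125656), the peptidase barrel of CLPXP, was at 40.4 and 44.5 CPM in DMSO and at 46.0 and 53.4 CPM in HJ-23. The groups did not overlap, and the log2 fold change was 0.23 (SE 0.165, 95% interval -0.18 to 0.63, adjusted p = 0.598, edgeR); without HJ-23 replicate 2 it was 0.092, and with the GC content and length offsets 0.0019. CLPX (ENSG00000166855), the unfoldase ring that feeds CLPP, was at 70.9 and 75.0 CPM in DMSO and at 71.7 and 69.8 CPM in HJ-23. Its 4 values were close together and overlapped between groups, with a log2 fold change of -0.044 (SE 0.14, 95% interval -0.38 to 0.29, adjusted p = 0.914, edgeR).

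YME1L1 (ENSG00000136758), the i-AAA protease, which cuts the fusion protein OPA1 and turns over import subunits, was at 140.9 and 174.0 CPM in DMSO and at 177.8 and 137.8 CPM in HJ-23. Each group held a high and a low library, and the group means were 157.5 ± 23.4 and 157.8 ± 28.3 CPM (log2 fold change 0.003, 95% interval -0.46 to 0.46, adjusted p = 0.996, edgeR). SPG7 (ENSG00000197912), paraplegin, which joins AFG3L2 in the m-AAA protease, was at 138.3 and 106.8 CPM in DMSO and at 107.9 and 135.1 CPM in HJ-23. It showed the reverse order, with DMSO replicate 1 and HJ-23 replicate 2 high, and a log2 fold change of -0.012 (95% interval -0.48 to 0.46, adjusted p = 0.985, edgeR).

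AFG3L2 (ENSG00000141385), the m-AAA subunit that can also form the protease on its own, had the closest replicates, 65.59 and 65.66 CPM in DMSO and 73.2 and 74.8 CPM in HJ-23. The groups were separated by more than either pair differed, and the log2 fold change was 0.17 (SE 0.135, 95% interval -0.16 to 0.505, adjusted p = 0.624, edgeR). The fit draws the spread of each gene toward that of genes of like level, so its interval is wider than these replicates alone would give. Over the 14 other ways of processing run, the log2 fold change of AFG3L2 stayed between 0.13 and 0.18 and its adjusted p was never below 0.364.

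In all, 4 of the 10 genes (HSPE1, LONP1, CLPP and AFG3L2) had both HJ-23 libraries above both DMSO libraries, and 0 had both below. Over all genes tested, 24.8% lay entirely above, 21.2% entirely below and 46.0% did not overlap in one direction or the other. The 40.0% of the 10 genes was close to the share for either direction. All of it lay above, where the share over all genes was 24.8%, and that difference was not tested. For 8 of the 10 genes, all but CLPP and AFG3L2, the libraries of at least 1 group differed from each other by more than the groups did; this held for 64.0% of all genes tested. Summed over the 10 genes, the level was 1805 and 2025 CPM in DMSO and 1994 and 1908 CPM in HJ-23, so the treated libraries lay between the controls.

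**Figure D2:**
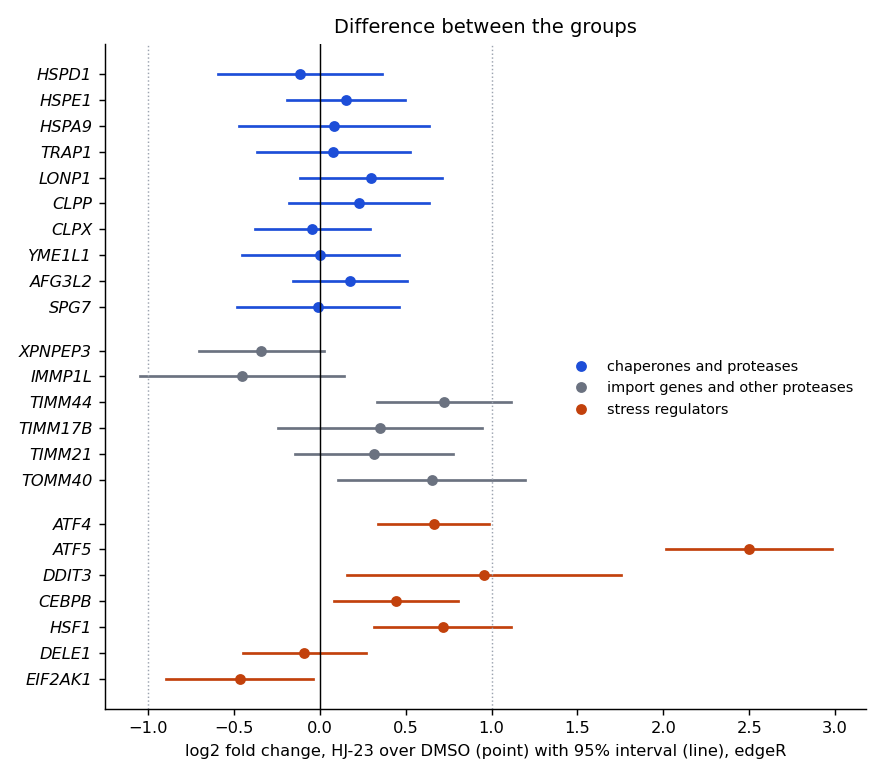
Log2 fold change of HJ-23 over DMSO (points) with its 95% interval (lines) from the edgeR fit, for the 10 chaperone and protease genes (blue), the 6 genes named from the wider mitochondrial list (grey) and the 7 stress regulators (orange); dotted lines mark a 2-fold change. All 10 blue intervals include 0 and end short of the dotted lines, while that of ATF5 runs from 2.02 to 2.98.

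Per kilobase of transcript, the order of the levels in DMSO was led by HSPD1 at 276.8 CPM per kb, HSPE1 at 126.9 and TRAP1 at 115.9. HSPA9 was at 50.2, LONP1 at 46.5, YME1L1 at 40.8, CLPP at 36.7 and SPG7 at 36.5 CPM per kb, and AFG3L2 at 20.2 and CLPX at 15.5 were the lowest. HSPD1, AFG3L2 and CLPX each stood apart from their neighbours in this order in both DMSO libraries. HSPE1 and TRAP1 overlapped, and so did each neighbouring pair from HSPA9 down to SPG7, so the order within those groups is not resolved. In HJ-23 the ends of the order were the same, with HSPD1 at 255.2 and CLPX at 15.1 CPM per kb, and LONP1 at 57.1 was above HSPA9 at 53.1, 2 genes whose libraries overlapped. Lengths are those of 1 main transcript per gene in GENCODE 29, so these levels would shift if HCT116 cells use other isoforms.

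Partners of 1 complex were compared by the ratio of their counts within a library, from which library scaling drops out. With 2 libraries against 2, the exact permutation test cannot give a two-sided p below 0.333. HSPD1 counts were 5.02 and 6.22 times those of HSPE1 in DMSO and 5.54 and 3.93 times in HJ-23; on the log2 scale the mean difference, HJ-23 minus DMSO, was -0.26 (SD between libraries 0.22 in DMSO and 0.35 in HJ-23, exact permutation p = 0.667, adjusted over the 3 ratios 0.667). The ratio of CLPP to CLPX was 0.570 and 0.593 in DMSO and 0.641 and 0.765 in HJ-23, without overlap (log2 difference 0.27, exact permutation p = 0.333, adjusted 0.667). With the GC content and length offsets that difference was -0.088, of the opposite sign. AFG3L2 counts were 0.474 and 0.615 times those of SPG7 in DMSO and 0.679 and 0.554 times in HJ-23, with overlap (log2 difference 0.18, exact permutation p = 0.667, adjusted 0.667). With the offsets that log2 ratio was -1.108 and -0.838 in DMSO and -0.584 and -0.659 in HJ-23, without overlap (difference 0.352). The HSPD1 to HSPE1 log2 ratio then was 2.360 and 2.509 in DMSO and 2.340 and 2.199 in HJ-23, also without overlap (difference -0.165). That of CLPP to CLPX then overlapped. The ratios with offsets were not tested.

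**Figure D3:**
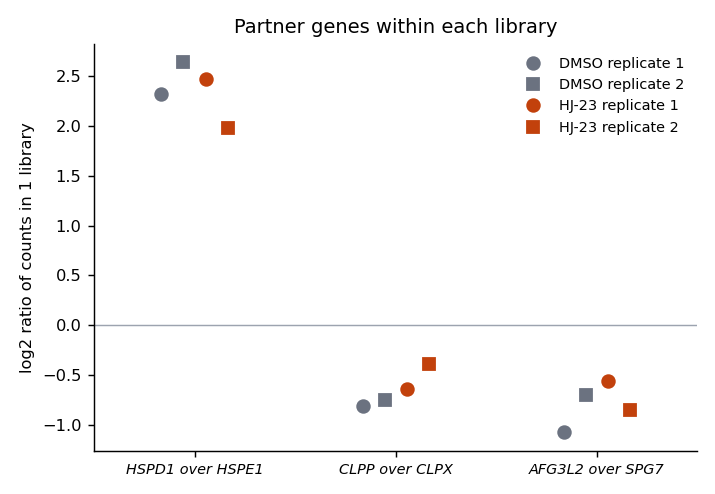
Log2 ratio of the counts of 2 partner genes within each library, grey for DMSO and orange for HJ-23, circles for replicate 1 and squares for replicate 2. Only the CLPP to CLPX ratio has both treated libraries above both controls, and the HSPD1 to HSPE1 ratio is lowest in HJ-23 replicate 2. The GC content and length offsets are not applied here.

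The differences between libraries of the same group tended to follow the GC content of the transcripts. HSPA9, HSPD1, YME1L1 and CLPX, at 41.3% to 44.2% GC, were all higher in DMSO replicate 2 than in replicate 1 and lower in HJ-23 replicate 2 than in replicate 1. TRAP1, SPG7 and LONP1, at 58.2% to 62.95% GC, did the reverse in both groups. CLPP, at 63.4% GC, was higher in replicate 2 of both groups. So were HSPE1, at 50.2% GC, and AFG3L2, at 49.95% GC, the latter only slightly. Across the 10 genes GC content had a Spearman correlation of 0.83 with the log2 ratio of HJ-23 replicate 2 to replicate 1 and of -0.53 with that of DMSO replicate 2 to replicate 1; all these values share the same 4 libraries. Over all genes tested these correlations were 0.64 and -0.36.

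GC content was also related to the difference between the groups, with a Spearman correlation of 0.59 across the 10 genes and 0.38 over all genes tested. Offsets that remove the trend of each library with GC content and length lowered the median size of the difference between the 2 HJ-23 libraries from 0.32 to 0.12 on the log2 scale over the 10 genes, and between the DMSO libraries from 0.199 to 0.15. With them the log2 fold changes ran from -0.19 for SPG7 to 0.20 for HSPA9, TRAP1 went to -0.086 and CLPX to 0.10, and the smallest adjusted p was 0.364 (edgeR). Whether the trend arose in the cells or in the libraries was not tested.

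**Figure D4:**
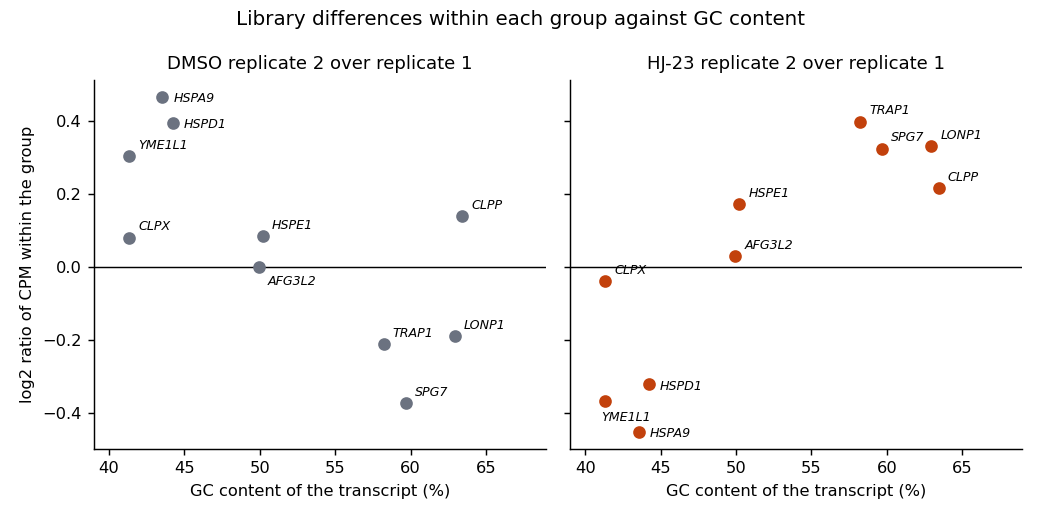
Log2 ratio of CPM between the replicates of a group (left, DMSO; right, HJ-23) against the GC content of the main transcript in percent, 1 point per gene. The points tend to fall with GC content in DMSO and to rise with it in HJ-23. CLPP in DMSO and CLPX in both panels lie away from that trend.

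Among the 7 regulators, ATF5 alone passed in the unblocked edgeR fit. ATF5 (ENSG00000169136), a bZIP factor that carries a mitochondrial import signal, was at 3.25 and 3.04 CPM in DMSO and at 16.6 and 19.0 CPM in HJ-23, and rose with a log2 fold change of 2.498 (95% interval 2.02 to 2.98, adjusted p = 0.0304, edgeR). Both treated libraries were far above both controls; when either HJ-23 library was left out ATF5 missed the threshold (adjusted p = 0.0767 without replicate 1 and 0.15 without replicate 2, edgeR), with log2 fold changes of 2.58 and 2.37. In such fits 1 group is a single library, assumed to vary like the pair of the other group, so calls gained or lost there rest on that assumption. ATF4, the factor whose translation is raised in the integrated stress response, was at 644.1 and 608.1 CPM in DMSO and at 962.3 and 1019 CPM with HJ-23 (log2 fold change 0.66, adjusted p = 0.229, edgeR). HSF1, the heat shock factor, was at 81.2 and 64.9 CPM in DMSO and at 115.6 and 124.2 CPM with HJ-23 (log2 fold change 0.71, adjusted p = 0.244, edgeR). Neither passed in this edgeR fit, which has no replicate block, and both did with DESeq2 (adjusted p = 0.00963 for ATF4 and 0.0378 for HSF1). With replicate number as a block neither passed (adjusted p = 0.233 for ATF4 and 0.122 for HSF1, edgeR). Shown beside each other, the intervals of ATF4, from 0.34 to 0.99, and of HSF1, from 0.31 to 1.115, overlapped those of LONP1 and HSPE1, among others. They lay wholly above that of CLPX, which ended at 0.29. With the GC content and length offsets the log2 fold changes were closer together, 0.53 for ATF4, 0.50 for HSF1 and 0.10 for CLPX. Whether the regulators and the chaperone genes differed in response was not tested.

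DDIT3, the stress factor CHOP, was at 86.3 and 63.2 CPM in DMSO and at 100.8 and 189.1 CPM with HJ-23 (log2 fold change 0.96, adjusted p = 0.362, edgeR). The treated libraries lay above the controls but differed widely from each other, and without DMSO replicate 1 DDIT3 passed (log2 fold change 1.20, adjusted p = 0.0213, edgeR), whereas without HJ-23 replicate 2 the log2 fold change was 0.41. CEBPB, which binds DNA together with DDIT3, had a log2 fold change of 0.445 (adjusted p = 0.359, edgeR), and of 0.19 with the GC content and length offsets. DELE1, the mitochondrial protein that relays stress to the cytosol, had one of -0.091 (adjusted p = 0.825, edgeR). EIF2AK1, the HRI kinase that DELE1 activates, was at 155.7 and 194.4 CPM in DMSO and at 137.8 and 115.4 CPM with HJ-23 (log2 fold change -0.47, adjusted p = 0.389, edgeR), below the controls in both treated libraries without passing in this fit. With replicate number as a block EIF2AK1 did not pass (adjusted p = 0.525, edgeR).

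Beyond the 10 genes, 34 others of mitochondrial protein quality control and import were listed, and all were tested. In the same edgeR fit 0 passed as higher and 0 as lower in HJ-23. At an unadjusted p below 0.05 there were 2 of the 34, TIMM44 and TOMM40, against 12.0% of all genes tested. With DESeq2 1 passed, TIMM44, against 2.31% of the genes for which it gave an adjusted p. The median log2 fold change was 0.049, and 44.1% had groups that did not overlap (9 higher and 6 lower), near the 46.0% of all genes tested. Helpers of the chaperones (the nucleotide exchange factors GRPEL1 and GRPEL2, the J-proteins DNAJA3 and HSCB, DNLZ, which keeps HSPA9 soluble, and the disaggregase CLPB) ran from -0.10 to 0.25. Proteins that scaffold or guide the inner membrane proteases, among them the prohibitins PHB1 and PHB2 and the stomatin-like STOML2, had 5 of 5 positive values, with a median of 0.18. The median over all genes tested was 0.009. Of the 5, 0 passed (smallest adjusted p = 0.502, edgeR), and 3 had both HJ-23 libraries above both DMSO libraries, against 24.8% of all genes tested. AFG1L, among those 3, had at most 100 counts per library. Whether the class differed from other genes was not tested.

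Other proteases and processing peptidases had 0 of 11 that passed (smallest adjusted p = 0.437, edgeR; 0 at an unadjusted p below 0.05 and 0 with DESeq2). Their median log2 fold change was -0.19, with 9 values below 0 and 2 above; 5 of the 11 had both HJ-23 libraries below both DMSO libraries, against 21.2% of all genes tested, 5 overlapped, and 1, the intermediate peptidase MIPEP, had both above. Of the 5 below, the largest differences were those of XPNPEP3, an aminopeptidase that trims imported proteins, at 59.8 and 59.6 CPM in DMSO and 49.4 and 44.9 CPM with HJ-23 (log2 fold change -0.34, and -0.10 with the offsets; adjusted p = 0.437, edgeR), and IMMP1L, a subunit of the inner membrane peptidase, with a log2 fold change of -0.455 (adjusted p = 0.485, edgeR), which moved to -0.73 when HJ-23 replicate 1 was left out and to -0.26 when replicate 2 was. OMA1, the stress-activated protease that cuts OPA1 and DELE1, was at 18.0 and 21.2 CPM in DMSO and at 18.7 and 15.5 CPM in HJ-23, with overlap.

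Import genes had 8 of 12 positive values and a median log2 fold change of 0.17, beside 0.009 for all genes tested. Of the 12, 4 lay entirely above the controls and 1 entirely below, against 24.8% and 21.2% of all genes tested. Whether these genes differed from others as a class was not tested. TIMM44, which tethers HSPA9 to the inner membrane channel, was at 33.9 and 32.1 CPM in DMSO and at 51.4 and 57.4 CPM in HJ-23. Both treated libraries were well above both controls, with a log2 fold change of 0.72 (SE 0.16, 95% interval 0.33 to 1.11, unadjusted p = 0.00391, adjusted p = 0.236, edgeR); with DESeq2 the adjusted p was 0.0212. TOMM40, the channel of the outer membrane, was at 31.0 and 28.4 CPM in DMSO and at 38.0 and 55.2 CPM in HJ-23, where the treated libraries differed more from each other than HJ-23 replicate 1 did from the controls (log2 fold change 0.65, adjusted p = 0.362, edgeR). Without HJ-23 replicate 2 it was 0.33. TIMM17B and TIMM21, subunits of the inner membrane translocase, stood at 0.35 and 0.32 on that scale, neither passing (adjusted p = 0.580 and 0.528, edgeR), and without 1 library or the other they ran down to 0.12 and 0.14. With the GC content and length offsets the log2 fold changes were lower for TIMM44 (0.55), TOMM40 (0.39) and TIMM17B (0.15). That of TIMM21 was higher (0.41).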

How the data were processed

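RNA-seq of 4 HCT116 libraries was used, 2 per group. The authors deposited whole-number counts for 20263 Ensembl genes per library, without normalization as the values show. Per the submitters' processing notes FastQC, Trimmomatic, HISAT2, bedtools and RSEM were used; no source used here gives the counter's settings, the strand or the build. Symbols came from a gene name table (20148 identifiers) or GENCODE 29 alone (76). Among counts of 1 to 8, 69.6% to 72.3% were even, against 49.7% to 50.8% above 50, so counts may be closer to reads than fragments.

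Groups came from the sample titles. Counts were analysed here in R 4.3.3 with edgeR 4.0.16: TMM scaling (factors 0.983 to 1.03), filterByExpr (14062 genes), robust dispersions, legacy quasi-likelihood F-test, Benjamini-Hochberg adjustment over all genes tested, threshold 0.05. Standard errors divide each log2 fold change by the square root of F, and the 95% intervals use the fit's degrees of freedom. The fit was tested on simulated counts with known changes. These had no trend with GC content, so that test does not address the trends described above. The alternatives were DESeq2 1.42.0, other scalings and filters, a replicate block, GC content and length offsets (splines with 5 degrees of freedom) and leaving out each library; the crossed block and the current quasi-likelihood form were added after the data were seen. GC content and length are those of 1 main transcript per gene in GENCODE 29.

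The genes and lists were chosen with earlier results of these data known. All 10 genes and 7 regulators are named whatever their values; of the wider list, those that passed and the 6 with the largest log2 fold change among those with a mean of at least 5 CPM; others are named as examples chosen after their values were seen. Libraries of a group differed by more than counting noise, which does not tell separate cultures from separate preparations of the same RNA: dividing chi-square by its degrees of freedom gave 36.5 (DMSO libraries) and 70.7 (HJ-23 libraries).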

Additional observations from a re-analysis of the deposited data

How the results depend on the processing

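Under each of the 14 alternatives 0 of the 10 genes passed, with adjusted p-values from 0.169 (LONP1 without HJ-23 replicate 1) to 1. Over all genes 12 passed (8 higher, 4 lower), against 311 (161 and 150) with DESeq2, 31 (18 and 13) with no filter, 0 with a mean of at least 10 CPM (0 and 0; 1253 at an unadjusted p below 0.05), 38 (24 and 14) with GC content and length offsets, and 0 to 273 (0 to 112 higher, 0 to 161 lower) when 1 library was left out; the count was 0 without either HJ-23 library (3501 and 1377 at an unadjusted p below 0.05), 273 without DMSO replicate 1 and 157 without DMSO replicate 2. Replicate numbers are shared between groups, but the labels do not say that they pair libraries, and same-numbered libraries deviated oppositely (correlation -0.24); with the replicate block 294 genes passed (136 higher, 158 lower), with the block and the offsets 0 (0 and 0; 1661 at an unadjusted p below 0.05), and with the numbers crossed 966 (454 and 512).

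The median of the 10 genes was 0.064 to 0.146 with 1 library left out and 0.065 to 0.088 otherwise. HSPE1, LONP1, CLPP and AFG3L2 kept a positive sign throughout. Others changed sign when 1 library was left out: HSPD1 ran from -0.31 to 0.071, HSPA9 from -0.18 to 0.31, TRAP1 from -0.16 to 0.25, YME1L1 from -0.21 to 0.15 and SPG7 from -0.21 to 0.19. With the offsets TRAP1 was at -0.086 and CLPX at 0.10, and with the block as well at -0.087 and 0.095. YME1L1, near 0, was at -0.011 with DESeq2's size factors, -0.0099 with DESeq2, -0.0015 with a mean of at least 10 CPM and -0.0002 with either block. The CLPP to CLPX difference was -0.088 with the offsets and 0.14 to 0.40 with 1 library left out, the AFG3L2 to SPG7 difference 0.35 and -0.0044 to 0.37, and the HSPD1 to HSPE1 difference -0.16 and -0.51 to -0.013; where a sign changed, the cause was not tested. ATF5 also failed to pass under the 10 CPM filter (adjusted p = 0.0596, edgeR) and with the block and offsets together (adjusted p = 0.0633, edgeR); its log2 fold change stayed between 2.32 and 2.58. DDIT3 passed with the replicate block (adjusted p = 0.026, edgeR) but not with the block and offsets together (adjusted p = 0.418, edgeR). With 2 libraries per group, the intervals given above stay wide.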

Other observations

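The counts also list HSPE1-MOB4, a readthrough gene that joins HSPE1 to its neighbour MOB4. Its counts were 37 and 45 in the DMSO libraries, 149 in HJ-23 replicate 1 and 46 in HJ-23 replicate 2, so 1 treated library stood above the other 3. HSPE1 itself had at least 3631 counts per library, and no source used here says how reads common to both genes were assigned. This gene was chosen after its values were seen.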
